A study of Mus musculus with 4 samples.

Results

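The genes described here are 47 nuclear genes that code for assembly factors of the respiratory chain, the proteins that build complexes I, II, III, IV and ATP synthase without remaining in the finished complexes. They were taken by symbol from the 22298 genes of the count table and make up 15 factors of complex I, 4 of complex II, 6 of complex III, 19 of complex IV and 3 of ATP synthase. Of these 47 genes, 46 were among the 12888 genes with enough counts for testing, and 1 (Pet117) had 0 counts in every library. RNA-seq was performed on brown adipose tissue (BAT) of mouse fetuses labelled C57BL/6 at E18.5, with 2 libraries per group. The dams of the control group drank sterilized tap water and those of the fructose group 20% (w/v) fructose water during gestation, and the fetuses of both groups were labelled male. How many fetuses or litters each library holds, and whether the libraries of a group come from separate litters, is not given in the sources used here, so the p-values below measure only the spread between these libraries.

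The respiratory chain passes electrons through complexes I to IV in the inner mitochondrial membrane and pumps protons that ATP synthase uses to make ATP, while in BAT the uncoupling protein UCP1 lets the protons back in and the energy leaves as heat. Except for complex II, each complex joins subunits encoded in the nucleus with subunits encoded in mitochondrial DNA, and flavins, iron-sulfur clusters, hemes and copper must be fitted into them on the way. Assembly factors hold partly built modules together, insert these cofactors or act on single subunits. Loss of single factors causes inherited deficiency of the corresponding complex.

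The promoters of the 6 members called lower in the fructose group (adjusted p under 0.05 in edgeR's test) are shown by 1 stretch of 30 bases each, because these are the members the results below turn on. The sequences are from RefSeq (GRCm38.p6), are read 5′ to 3′ on the strand of the gene, and capitals mark a motif found by letter search on either strand. Where several of the motifs searched for lay before the start, the nearest is printed, and the motif of SP factors only where no other was found. Ndufaf8 (chr11:120098904-120098933, plus strand) and Bcs1l (chr1:74588230-74588259, plus strand) show CCGGAAG, the motif of GABPA and related ETS factors. Uqcc2 (chr17:27133921-27133950, minus strand) shows GCGCANGCG, the motif of NRF1, and Uqcc3 (chr19:8881053-8881082, minus strand) shows AAGGTCA, the motif of estrogen-related receptors (ERR). Ndufaf3 (chr9:108567629-108567658, minus strand) shows GGGCGG, the motif of SP factors, and Sco2 (chr15:89374094-89374123, minus strand) shows it as its reverse complement.
Ndufaf8: ccggatgttcacgcgttcgactCCGGAAGa
Bcs1l: tggtgggtgtggCCGGAAGtagatgcagca
Uqcc2: tgcgccttagtGCGCACGCGccctctgcgg
Uqcc3: ggaaattgaaccAAGGTCAtttgggagagc
Ndufaf3: cagagcgcgcaaGGGCGGggtggtgctcca
Sco2: aagaccaaggcgCCGCCCgagtggccgcgg
The motifs begin 8 (Ndufaf8), 47 (Bcs1l), 48 (Uqcc2), 137 (Uqcc3), 210 (Ndufaf3) and 220 (Sco2) bases before the RefSeq start, which can differ from the GENCODE gene ends given below. By the GENCODE annotation the stretch of Sco2 overlaps an exon of Tymp, that of Bcs1l an exon of Zfp142, that of Ndufaf3 an exon of 4833445I07Rik and that of Ndufaf8 an exon of Ndufaf8 itself.

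Total counts were 19224529 and 18542897 in control libraries 1 and 2, compared with 22461298 and 23645147 in fructose libraries 1 and 2. Levels are given in CPM, that is, counts relative to the library total with TMM factors applied, in the order control 1, control 2, fructose 1 and fructose 2, and 3 counts in a library correspond to 0.122 to 0.166 CPM. The Y-linked genes Ddx3y, Eif2s3y, Uty and Kdm5d (4 genes) summed to 22.3 and 21.6 CPM in control and had 0 counts in both fructose libraries, which goes against the male label of the latter. Because both fructose libraries are affected, no comparison below can be made without them, and fetal sex and maternal fructose cannot be told apart. Markers of brown adipocytes summed to 14790.0 and 17410.0 CPM in control and 15950.0 and 14440.0 CPM in fructose, and Ucp1 was at 9705 and 12420.0 against 11000.0 and 9606 CPM, high in every library as the tissue label says. All 14 skeletal muscle markers rose (15.5% of all tested genes), from sums of 247 and 335 CPM to sums of 760.1 and 608 CPM. Of 7 erythroid markers 5 fell (10.7% of all tested genes), from sums of 19200.0 and 15290.0 CPM to sums of 11770.0 and 12140.0 CPM. With trends of transcript length and GC content removed, 11 muscle markers were called higher and 0 erythroid markers lower (4.07% and 2.96% of all tested genes). The part of these changes in the results below was not tested. In such bulk tissue fewer cells of a type and less RNA per cell cannot be told apart.

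Most assembly factors were slightly lower in fetal BAT from fructose-fed dams. The log2 fold change of fructose against control was below 0 in 37 of 46 tested members (80.4%), compared with 49.7% of all 12888 tested genes. Its median over the members was -0.17, with quartiles at -0.27 and -0.08, whereas the median over all tested genes was 0.00. Both fructose libraries lay below both control libraries in 28 members (60.9%), a side that 31.6% of all tested genes took, and above both in 4 members (8.7%), compared with 33.4%. The groups overlapped in the other 14 members. The summed level of the 47 genes was 3279 and 3467 CPM in control and 3104 and 2913 CPM in fructose.

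With edgeR's test and an adjusted p under 0.05, 6 members fell (13%, with 10.7% of all tested genes called lower) and 0 rose (15.5% of all tested genes, and 26.2% in either direction). The share of members called lower was thus near that background. At an unadjusted p under 0.05 edgeR gave 18 members lower and 1, Ttc19, higher (17.8% and 21.5% of all tested genes). At an adjusted p under 0.05 DESeq2 called 6 lower and 0 higher (8.25% and 10.6% of all tested genes). For 11 further members the adjusted p of edgeR lay between 0.05 and 0.10 with a lower level in fructose (4.91% of all tested genes). With the thresholds of the study's methods (unadjusted p under 0.05 and a fold change above 1.3), Ndufaf8, Uqcc2 and Sco2 were lower (6.52% of members, 6.18% of all tested genes) and Ttc19 was higher (17.6% of all tested genes). When counts were scaled by library size alone, 5 members were called lower, and 6.67% of all tested genes were called lower and 17.4% higher.

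**Figure D1:**
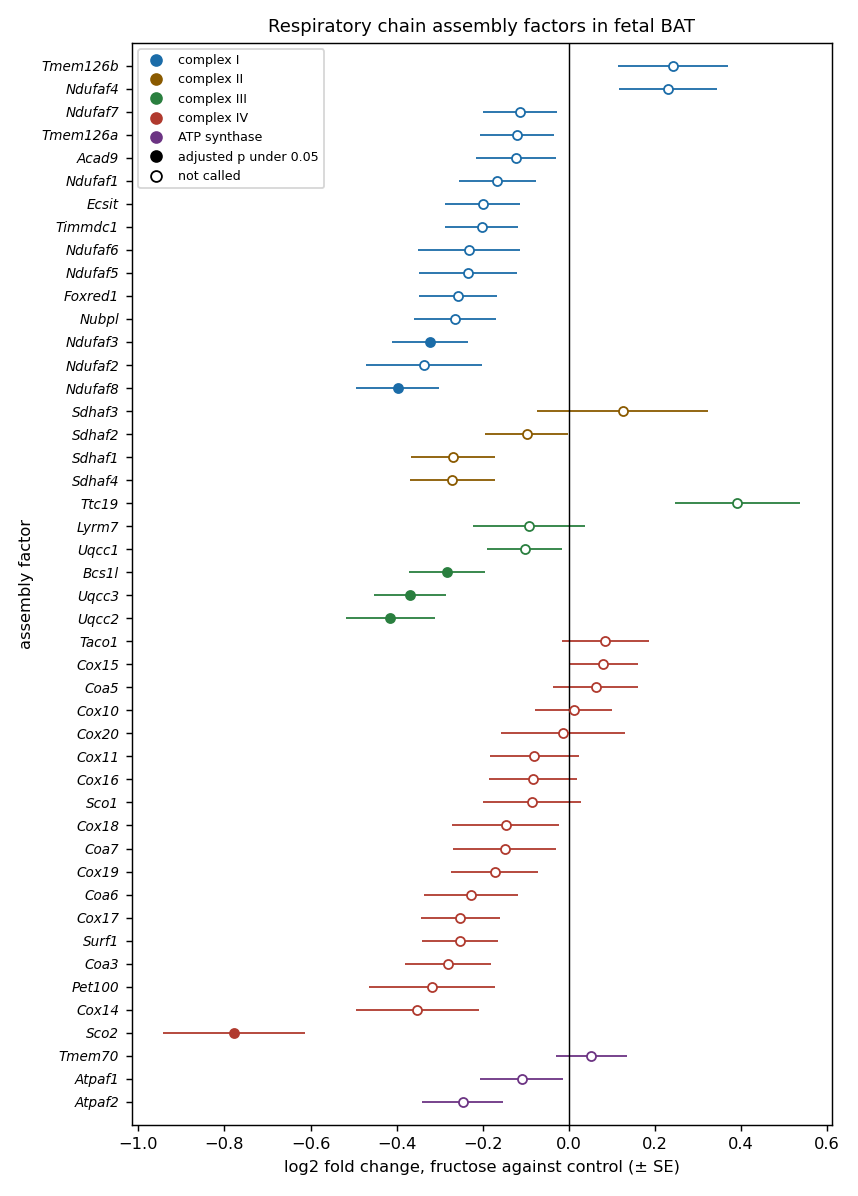
Log2 fold change of fructose against control (x axis) for the 46 tested assembly factors (y axis), coloured by complex, with bars for ± SE from edgeR and filled points for an adjusted p under 0.05. Most points sit to the left of 0, the 6 filled points are all on that side, and Ttc19 (0.39) and Sco2 (-0.78) mark the ends.

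Complex I, the largest complex, takes electrons from NADH and is built from modules that are named after the reactions they hold. Of its 15 factors, 13 had a lower mean level in fructose and 2 a higher one, and the median log2 fold change was -0.20. In 12 factors both fructose libraries lay below both control libraries, a side that 31.6% of all tested genes took. Ndufaf3 and Ndufaf8, which act on the ubiquinone-binding (Q) module, fell, and no factor rose (10.7% and 15.5% of all tested genes). The summed level of the 15 factors was 1039 and 1124 CPM in control and 968.5 and 917 CPM in fructose.

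Within complex I, the intermediate that assembles the membrane arm (MCIA) is formed by Ndufaf1, Ecsit, Acad9, Tmem126b and Timmdc1. Ecsit, which links Ndufaf1 to the rest of the intermediate, had 133 CPM per kilobase with the shortest and 116 with the longest of its equally ranked transcripts (mean over the 4 libraries). It was at 200.3, 215, 191 and 170.5 CPM, with both fructose libraries below control (log2 fold change -0.20 ± 0.09 SE, adjusted p = 0.112 in edgeR's test). Ndufaf1 was at 75.04, 78.7, 73.0 and 64.0 CPM and Timmdc1, a membrane protein of the same intermediate, at 59.8, 63.7, 54.2 and 53.1 CPM, so that both were lower in each fructose library than in each control library. Acad9, a flavoprotein related to acyl-CoA dehydrogenases, was at 80.6, 93.7, 83.0 and 77.1 CPM, and its groups overlapped. Tmem126b stood on the other side, at 19.4, 16.1, 21.0 and 21.0 CPM. Both fructose libraries were above control, and the log2 fold change was the highest of complex I but did not pass the test (0.24 ± 0.13, adjusted p = 0.184 in edgeR's test). Its paralog Tmem126a, which takes part in building the distal membrane arm, was at 53.3, 53.8, 50.5 and 48.0 CPM with both fructose libraries below control.

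Both calls of complex I were on factors of the Q module. Ndufaf8, the partner that stabilizes Ndufaf5, was at 36.3, 36.4, 28.5 and 26.7 CPM (chr11:120098928-120100705, plus strand, mm10). Both fructose libraries were below both control libraries, with control and fructose means of 36.4 ± 0.0876 and 27.6 ± 1.23 CPM (SD, n = 2). The level fell by 24.1% (log2 fold change -0.40 ± 0.10, adjusted p = 0.0113 in edgeR's test). Ndufaf5 itself, an enzyme that hydroxylates a subunit of this module, was at 24.0, 27.7, 21.8 and 22.04 CPM, lower in both fructose libraries without passing the test. Ndufaf3, which joins Ndufaf4 on the early module, was at 65.0, 59.2, 50.5 and 48.8 CPM (chr9:108565537-108567434, minus strand, mm10). Again the groups did not overlap, with means of 62.1 ± 4.10 CPM and 49.7 ± 1.21 CPM, and the level fell by 20.0% (log2 fold change -0.32 ± 0.09, adjusted p = 0.0195 in edgeR's test). Its partner Ndufaf4 was at 20.1, 22.7, 25.9 and 24.4 CPM, higher in both fructose libraries (adjusted p = 0.153 in edgeR's test). With trends of transcript length and GC content removed, the log2 fold changes were -0.06 (Ndufaf3) and -0.39 (Ndufaf4), and the partners were not compared by a test. Ndufaf7, a methyltransferase of another subunit of the module, was at 54.0, 55.0, 51.6 and 49.1 CPM and Ndufaf6 at 22.4, 26.3, 21.2 and 20.3 CPM, both lower in each fructose library. Without fructose library 2 neither call held (adjusted p = 0.0948 for Ndufaf8 and 0.125 for Ndufaf3 in edgeR's test), and that of Ndufaf3 was also lost without control library 1 (0.0602) or fructose library 1 (0.0543). Ndufaf3 shares 48 of its exonic bases with Impdh2 on the opposite strand, which also fell (log2 fold change -0.34, adjusted p = 0.0149).

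The 3 factors of later steps were all lower in each fructose library than in each control library (31.6% of all tested genes), and none passed the test. Foxred1, an oxidoreductase of the middle and late steps, was at 275, 319, 250.2 and 247 CPM (log2 fold change -0.26 ± 0.09, adjusted p = 0.0549 in edgeR's test) and, at 122 CPM per kilobase, ranked below Ecsit with the shortest and above it with the longest transcripts. Nubpl, which delivers iron-sulfur clusters to complex I, was at 36.4, 39.8, 31.3 and 32.1 CPM. Ndufaf2, which binds a late intermediate before the NADH-binding (N) module is added, was at 17.3, 17.4, 14.9 and 12.7 CPM.

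Complex II, succinate dehydrogenase, is the only complex without a mitochondrially encoded subunit and needs few factors. None of its 4 factors passed the test, 3 had a lower mean level in fructose, and the median log2 fold change was -0.18. Sdhaf4, which binds the flavin-carrying subunit before it joins its partner, had the highest level per transcript length of this complex (43.3 CPM per kilobase). It was at 32.8, 31.9, 27.4 and 26.3 CPM, with no overlap between groups and the lowest log2 fold change of the 4 (-0.27 ± 0.10, adjusted p = 0.061 in edgeR's test). Sdhaf1, which helps the iron-sulfur subunit receive its clusters, followed with 23.6 CPM per kilobase. Its level, measured over a gene of which 69.6% of exonic bases are shared with a gene on the opposite strand at 0 counts, was 62.9, 65.4, 57.9 and 48.5 CPM, again without overlap (log2 fold change -0.27 ± 0.10, adjusted p = 0.063 in edgeR's test). Sdhaf2, which is needed to attach the flavin, was at 40.7, 39.4, 39.8 and 35.1 CPM and overlapped between groups. Sdhaf3, another factor of the iron-sulfur subunit, was the least abundant member per transcript length of all 46 tested (1.38 CPM per kilobase), at 6.28, 5.10, 6.68 and 5.76 CPM, with overlapping groups (log2 fold change 0.12 ± 0.20, adjusted p = 0.677 in edgeR's test).

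Complex III passes electrons from ubiquinol to cytochrome c, and its factors fall into those of cytochrome b, the mitochondrially encoded subunit, and those of the Rieske iron-sulfur protein, the last catalytic subunit to be added. It held 3 of the 6 calls (10.7% of all tested genes were called lower). Uqcc2 and Uqcc3, which act on cytochrome b, and Bcs1l, which moves the folded Rieske protein across the inner membrane, fell, and Ttc19, which clears fragments of the Rieske protein, lay on the other side. The median log2 fold change of the 6 factors was -0.19.

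Uqcc2, which with Uqcc1 binds newly made cytochrome b, was at 58.9, 51.7, 44.7 and 38.4 CPM (chr17:27122663-27133916, minus strand, mm10). Every fructose value was below every control value, with means of 55.3 ± 5.06 CPM and 41.5 ± 4.44 CPM. The level fell by 25% (log2 fold change -0.42 ± 0.10, adjusted p = 0.013 in edgeR's test). Uqcc1 was at 222, 238, 226 and 203 CPM, and its groups overlapped (log2 fold change -0.10 ± 0.09, adjusted p = 0.409 in edgeR's test). With trends of transcript length and GC content removed, the log2 fold changes were 0.06 (Uqcc2) and -0.04 (Uqcc1), and the partners were not compared by a test. Per transcript length these partners were the 2 highest of complex III, with 96.8 and 84.5 CPM per kilobase. Uqcc3, which follows them on cytochrome b and stabilizes it, was at 62.2, 62.7, 49.1 and 47.6 CPM (chr19:8880014-8880923, minus strand, mm10). The replicates lay close together, with means of 62.4 ± 0.388 CPM in control and 48.3 ± 1.05 CPM in fructose, and the level fell by 22.6% (log2 fold change -0.37 ± 0.08, adjusted p = 0.0083 in edgeR's test). Both calls were lost when fructose library 2 was left out (adjusted p = 0.117 for Uqcc2 and 0.0651 for Uqcc3 in edgeR's test).

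Of the factors of the Rieske protein, Bcs1l, an AAA-type ATPase, was at 93.9, 86.3, 77.8 and 70.4 CPM (chr1:74588289-74592443, plus strand, mm10). The groups did not overlap, with means of 90.1 ± 5.37 CPM and 74.1 ± 5.23 CPM, and the level fell by 17.8% (log2 fold change -0.28 ± 0.09, adjusted p = 0.0339 in edgeR's test). This call was lost with DESeq2 (adjusted p = 0.0516), with scaling by library size alone (0.0767), without control library 1 (0.0811) and without fructose library 2 (0.283). Lyrm7, which escorts the Rieske protein in the matrix, was at 16.4, 19.2, 16.4 and 16.9 CPM, and its groups overlapped. Ttc19 was at 12.8, 10.8, 14.6 and 16.4 CPM, higher in both fructose libraries than in both control libraries. Its log2 fold change was the highest of all 46 members and missed the threshold (0.39 ± 0.15, adjusted p = 0.0671 in edgeR's test).

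**Figure D2:**
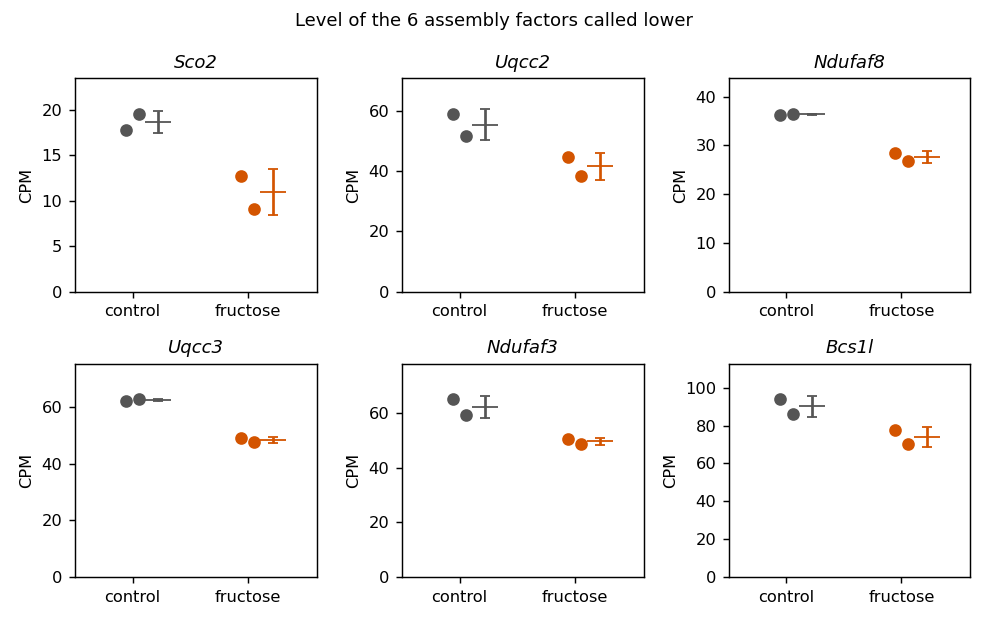
Level in CPM (y axis, from 0) of the 6 assembly factors called lower, for the 2 control and the 2 fructose libraries (points), with the mean and SD beside them. In each panel both fructose libraries lie below both control libraries, and the gap is widest in proportion for Sco2, which fell from 17.8 and 19.5 CPM to 12.7 and 9.10 CPM.

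Complex IV, cytochrome c oxidase, carries heme A and copper in its mitochondrially encoded subunits COX1 and COX2 and had the most factors. Of 18 tested factors, 14 had a lower and 4 a higher mean level in fructose, and the median log2 fold change was -0.15. Only 1 passed the test, Sco2 (10.7% of all tested genes were called lower). A further comparison by library put 9 factors lower in both fructose libraries than in both control libraries (31.6% of all tested genes). Cox15 was higher in both, and the groups overlapped in the other 8 factors. By step, the 7 copper factors all had a lower mean level (median -0.17), while the 3 tested heme A factors were centred near 0 (median 0.01). With the trend of transcript length removed from each library, the medians were -0.002 (copper) and -0.06 (heme A). With the trends of length and GC content both removed they were -0.12 and -0.0007, and the difference between steps was not tested.

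The copper route runs from Cox17 in the intermembrane space to Sco1 and Sco2, which load the copper site of COX2, and to Cox11, which loads that of COX1. Sco2 was at 17.8, 19.5, 12.7 and 9.10 CPM (chr15:89371637-89373846, minus strand, mm10). Both fructose libraries were below both control libraries but differed from each other, with means of 18.6 ± 1.23 CPM in control and 10.9 ± 2.54 CPM in fructose. The level fell by 41.7% (log2 fold change -0.78 ± 0.16, adjusted p = 0.00593 in edgeR's test), the lowest log2 fold change of the 46 members, and the call held without each library in turn (-1.03 to -0.55). Only 103 of the 1253 exonic bases of Sco2 (8.2%) belong to no other listed gene, because 68.3% are shared with Tymp on the same strand and 66.2% with Ncaph2 on the opposite strand. Ncaph2 was at 169.6, 170.2, 133 and 127.5 CPM and also fell (log2 fold change -0.39, adjusted p = 0.0052 in edgeR's test), whereas Tymp did not pass the test (-0.47, adjusted p = 0.263). Reads of these 3 genes cannot be told apart with certainty, since the treatment of strand and of shared reads is not stated.

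Cox17 had the highest level per transcript length of all members with the transcript of 444 bases used here (369.6 CPM per kilobase), and 44.5 CPM per kilobase with the equally ranked transcript of 3690 bases. It was at 191, 166, 155 and 144 CPM, and no fructose value reached a control value (log2 fold change -0.25 ± 0.09, adjusted p = 0.0607 in edgeR's test). Sco1, the paralog of Sco2, was at 20.8, 22.3, 20.2 and 20.4 CPM, with both fructose libraries just below control. Coa6, a partner of the Sco proteins, was at 25.9, 28.9, 22.7 and 24.2 CPM and Cox19, a partner of Cox11, at 59.5, 58.8, 57.5 and 47.6 CPM, both without overlap. Cox11 was at 33.0, 38.3, 35.1 and 32.4 CPM and Cox16, which takes part in the copper loading of COX2, at 32.8, 35.4, 34.2 and 30.2 CPM, and both overlapped between groups. Of their exonic bases 51.7% (Cox11) and 23.5% (Cox16) belong to no other listed gene.

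Heme A is made by Cox10, which converts heme B to heme O, and Cox15, which oxidizes heme O. Cox10 was at 84.8, 91.6, 94.3 and 83.4 CPM, with control and fructose values interleaved. Cox15 was at 94.4, 99.6, 104 and 101 CPM, with both fructose libraries slightly above control, and did not pass the test (log2 fold change 0.08, adjusted p = 0.498 in edgeR's test). Surf1, which acts as heme A is placed in COX1 and whose loss causes a deficiency of complex IV, was at 51.1, 54.3, 45.1 and 43.5 CPM. Both fructose libraries were below control, and the adjusted p lay just above the threshold (0.052 in edgeR's test). Pet117, which binds Cox15, had 0 counts in all 4 libraries, and all 693 of its exonic bases lie within the gene Kat14, so its level was not measured.

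Factors of COX1 synthesis control the translation of this subunit and hold it until partners arrive. Taco1, the activator of its translation, was at 53.0, 59.7, 64.5 and 55.0 CPM, overlapped between groups and had the highest log2 fold change of complex IV (0.08 ± 0.10, adjusted p = 0.575 in edgeR's test). Coa3, which binds new COX1, was at 115, 125, 108 and 89.3 CPM, without overlap (log2 fold change -0.28 ± 0.10, adjusted p = 0.0566 in edgeR's test), and ranked next to Cox17 within complex IV in level per transcript length (123 CPM per kilobase). Cox14, its partner on COX1, was at 84.7, 61.5, 50.5 and 64.0 CPM. Here fructose library 2, at 64.0 CPM, lay above control library 2, at 61.5 CPM, and the groups overlapped despite a log2 fold change of -0.35.

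COX2 is inserted by Cox18 and held by Cox20. Cox18 was at 17.1, 16.9, 15.5 and 15.1 CPM, with both fructose libraries below control, and Cox20 at 14.2, 12.4, 13.8 and 12.5 CPM, with overlap. Among the remaining factors of complex IV, Pet100 was at 14.2, 14.4, 10.4 and 12.5 CPM and lower in both fructose libraries, though only 32.3% of its exonic bases are its own. Coa5 was at 201, 246, 229.7 and 237 CPM and Coa7 at 25.01, 31.1, 25.4 and 25.1 CPM, and both overlapped between groups.

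ATP synthase, which makes ATP from the proton gradient, has 3 factors among the members, and none passed the test. Atpaf2, which binds the alpha subunit of the catalytic F1 head, ranked next to Cox17 among all members in level per transcript length (209.6 CPM per kilobase). It was at 383, 442, 362 and 333 CPM, with both fructose libraries below control (log2 fold change -0.25 ± 0.09, adjusted p = 0.0717 in edgeR's test). Atpaf1, which binds the beta subunit, was at 33.5, 35.2, 33.0 and 30.6 CPM, with a smaller gap and no overlap. Tmem70, which takes part in building the ring of c subunits, was at 79.3, 74.0, 80.6 and 78.4 CPM, overlapped between groups (log2 fold change 0.05 ± 0.08, adjusted p = 0.673 in edgeR's test) and stood at 47.7 CPM per kilobase.

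The assembly factors were set beside the subunits that they put together. All 80 nuclear-encoded subunits had a lower mean level in fructose before any trend was removed, compared with 49.7% of all tested genes. Those that fell were 30 of 36 in complex I, 2 of 4 in complex II and 5 of 9 in complex III. In complex IV 7 of 13 fell and in ATP synthase 8 of 18, with 10.7% of all tested genes called lower. The median log2 fold changes of the subunits were -0.32, -0.29, -0.38, -0.36 and -0.28 in this order of complexes. Those of the factors were -0.20, -0.18, -0.19, -0.15 and -0.11. As fitted, the median of the factors was nearer to 0 than that of the subunits in each complex, a difference that was not tested and that turned round in several complexes when trends of transcript length and GC content were removed from each library. With both trends removed the medians of factors and subunits were -0.11 and -0.08 (complex I), -0.23 and -0.21 (complex II), -0.05 and -0.13 (complex III), -0.03 and -0.03 (complex IV) and -0.08 and -0.02 (ATP synthase). With the length trend alone removed the factors were further from 0 than the subunits in complexes III and IV and ATP synthase. With both trends removed the calls on subunits were largely lost as well. Called lower were 3 of complex I, 1 of complex II and 0 of the other complexes (2.96% of all tested genes). Called higher was 1 of ATP synthase (4.07% of all tested genes). As fitted, another list of 19 assembly factors, which holds genes such as Oxa1l, the insertase of the inner membrane, gave 16 lower and 3 higher mean levels. Of the 19, 5 were called lower (10.7% of all tested genes), and the median was -0.17. With both trends removed 1 was called lower (2.96% of all tested genes), and the median was -0.06. In this list Fmc1, a factor of ATP synthase, was at 229.9, 219.8, 170.3 and 156 CPM (log2 fold change -0.46 as fitted, adjusted p = 0.00275 in edgeR's test). Oxa1l was at 257, 287, 221 and 210.0 CPM (-0.34, adjusted p = 0.015).

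The 13 proteins encoded in mitochondrial DNA took the other side. All 13 had a higher level in both fructose libraries than in both control libraries (33.4% of all tested genes). Of these, 12 rose (15.5% of all tested genes), and the median log2 fold change of the 13 was 0.92. The mitochondrial gene mt-Co1, the COX1 subunit that Taco1, Coa3 and Cox14 serve, rose from 19750.0 and 25380.0 CPM to 36900.0 and 39280.0 CPM, and mt-Cytb, which the Uqcc proteins bind, rose from 3959 and 4283 CPM to 7774 and 8202 CPM. Mitochondrially encoded genes took 5.89% and 6.49% of all counts in control and 10.8% and 11.2% in fructose. With library sizes taken without these and the hemoglobin genes, the same 6 assembly factors were called lower (10.7% of tested genes). Of 11 regulators of nuclear mitochondrial genes, 10 were tested. Ppargc1a (PGC-1α, log2 fold change 1.16), Ppargc1b (0.73), Gabpa (0.81), Esrrg (1.43) and Yy1 (0.31) rose (15.5% of all tested genes). Esrra, the receptor ERRα, fell (-0.27, adjusted p = 0.0313 in edgeR's test). The other 4, Nrf1 (0.09), Tfam (0.20), Gabpb1 (0.17) and Pprc1 (-0.39), were not called. With length and GC trends removed, 3 regulators were called higher (4.07% of all tested genes), and the median moved from 0.255 to 0.171.

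**Figure D3:**
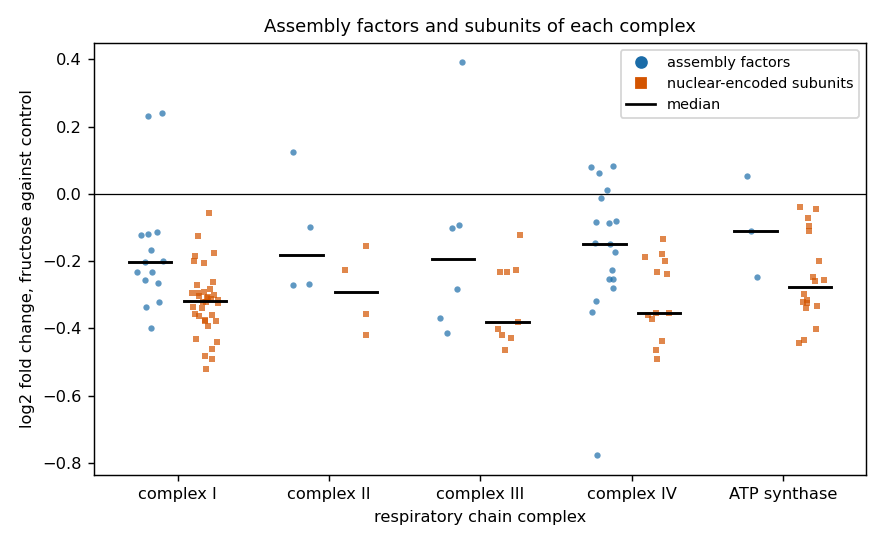
Log2 fold change of fructose against control (y axis) for tested assembly factors (blue circles) and nuclear-encoded subunits (orange squares) of each complex (x axis), 1 point per gene, with black lines for the medians. As fitted, all subunits lie below 0 and assembly factors on both sides, with medians of -0.20 to -0.11 for factors and -0.38 to -0.28 for subunits. With length and GC trends removed (not drawn), the factors' medians are further from 0 than the subunits' in complexes I and II and ATP synthase.

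The differences of the members moved with transcript length and base composition. Over the 46 tested members the rank correlation of the log2 fold change was 0.59 with transcript length and -0.59 with GC content, and over all tested genes 0.48 and -0.52, where all points share the same 4 libraries. The members are short, with a median length of 1530 bases compared with 2865 over all tested genes, and the 6 called members are 500 (Uqcc2) to 1488 (Bcs1l) bases long. With the length trend removed from each library, the median over the members was -0.06 and 1 member, Sco2, was still called (-0.58), with 8.02% of all tested genes called lower. With the GC trend removed the median was -0.24 and 11 members were called, among them Sco2 and Uqcc3 of the 6 (7.81% of all tested genes). With both removed the median was -0.09, none of the 6 passed the test, and Cox16 and Nubpl were called lower instead and 0 members higher (2.96% and 4.07% of all tested genes). The transcripts of Cox16 and Nubpl have 38.1% and 43% GC, compared with a median of 50.8% over all tested genes. Their log2 fold changes went from -0.08 and -0.26 as fitted to -0.66 and -0.59 with both removed. The log2 fold changes of the 6 were then -0.42 (Sco2, adjusted p = 0.131 in edgeR's test), -0.09 (Bcs1l), -0.07 (Uqcc3), -0.06 (Ndufaf3), -0.04 (Ndufaf8) and 0.06 (Uqcc2). Ndufaf4, which lay above control in both fructose libraries, had a log2 fold change of -0.43 with the GC trend removed, and Ttc19 kept its sign in every setting tried. The median of the complex IV subunits turned to 0.0073 with the length trend alone removed. The median of the mitochondrially encoded proteins was 1.15 with the length trend removed, 0.10 with the GC trend removed and 0.39 with both removed, when 4 of 13 were called higher. Whether the length trend comes from the libraries or from the tissue cannot be told apart with this design.

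**Figure D4:**
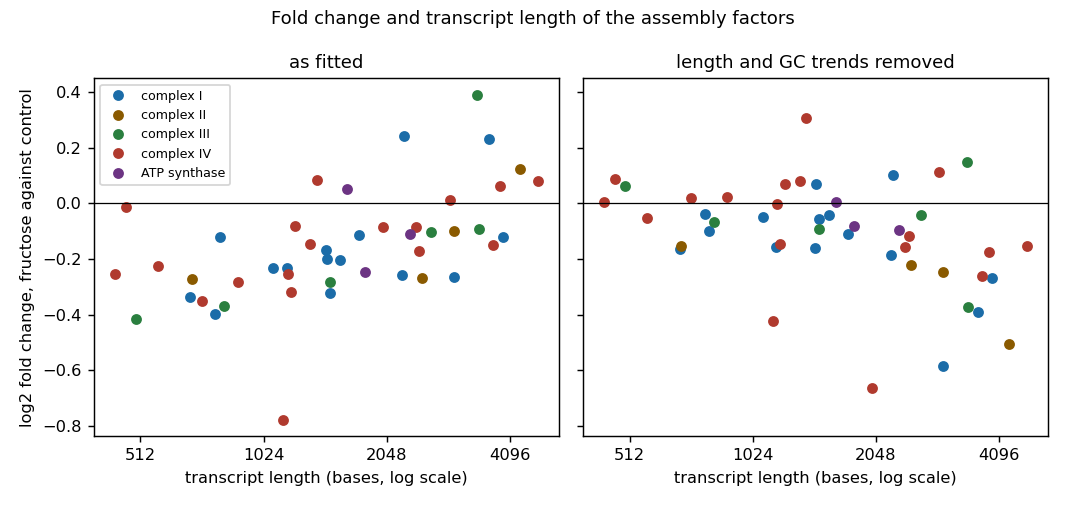
Log2 fold change of fructose against control (y axis) against transcript length in bases (x axis, log scale) for the 46 tested assembly factors, as fitted (left) and with the length and GC trends removed from each library (right), coloured by complex. On the left short transcripts lie lower than long ones, and on the right the points scatter around a median of -0.09.

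The promoters of the members were searched for motifs of factors that are known to act on nuclear mitochondrial genes. RefSeq promoters (250 bases before to 50 after the start) were found for 41 of 47 members. CCGGAAG was in 41.5% of them, compared with 9.12% of all 27025 promoters, as in the sequences of Ndufaf8 and Bcs1l above. GCGCANGCG was in 17.1% compared with 6.47%, as in Uqcc2, and AAGATGGCG, the motif of YY1, in 9.8% compared with 1.49%. GGGCGG was in 80.5% compared with 35.9%, and AAGGTCA in 2.4%, only Uqcc3, compared with 4.66%. These shares stand beside a higher GC content of the members' promoters (median 61.3%, compared with 52.7%), whose part was not tested. The 27025 promoters were not limited to the genes tested here, and the part of this was not tested either. The median log2 fold change was -0.17 both for tested members with and for those without CCGGAAG, and with both trends removed -0.10 and -0.11. For GCGCANGCG, found in Ndufaf4, Ttc19, Sdhaf3, Coa5, Uqcc2, Ndufaf5 and Sdhaf4, it was 0.06 with and -0.17 without the motif as fitted, and turned to -0.16 with and -0.09 without it when both trends were removed.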

How the data were processed

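RNA-seq libraries of fetal BAT (2 control, 2 fructose) were analysed from raw read counts per gene that the authors deposited, without normalization or pooling. Per the labels and the study's methods, the authors filtered reads with fastp, mapped them to mm10 with Bowtie2 2.0.0.5 and TopHat2 2.0.0, assembled transcripts with StringTie 2.2.0 and merged them before counting reads on genes. The counting tool, its treatment of strand and shared reads, and the annotation release are not given in the sources used here. Libraries were grouped by their treatment labels, and the columns of counts were matched to libraries by title. Replicate libraries differed by more than sampling noise (chi-square per degree of freedom 13.1 in control and 8.45 in fructose), so each counted as 1 sample.

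Ensembl identifiers were matched to symbols, positions, transcript lengths and GC content in a GENCODE annotation of GRCm38 (mm10), in which 43 had no match. Genes kept by filterByExpr (12888) were tested, two-sided, with edgeR 4.0.16 (quasi-likelihood, TMM, no covariate) in R 4.3.3, with Benjamini-Hochberg adjustment over all tested genes and a threshold of 0.05. The common biological coefficient of variation was 8.52%. Levels are CPM after TMM, and levels per kilobase used the best-ranked transcript (the shortest among equals). The alternatives were DESeq2 1.42.0, its size factors, library size only, other filters on low counts (none, or 10 counts in every library), library sizes without mitochondrially encoded and hemoglobin genes, a block for the replicate number, removal of length and GC trends by lowess (span 0.3), and each library left out in turn. The tests were checked on simulated counts. Lists were described by counts and medians, without a set test.

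All members are named with their values. Full statistics are given for members called, for those with the highest and lowest log2 fold change in each complex and for the 2 of each complex with the highest level per kilobase, and values of a few others are added. The members and gene lists were chosen with earlier results of these data known. Protein sequences were not used here.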

Additional observations from a re-analysis of the deposited data

How the results depend on the processing

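The count of 6 members called lower stayed within 1.5 times with DESeq2 (6, of which 5 were shared, with Foxred1 in place of Bcs1l), DESeq2's size factors (9, with 11.4% of all tested genes called lower), scaling by library size only (5), library sizes without mitochondrially encoded and hemoglobin genes (6) and at least 10 counts in every library (6, 10.7%). It was 11 without a filter on low counts (8.95%), where Ttc19 was called higher as well (1 member, 13.6%), 1 with the length trend removed, 11 with the GC trend removed and 2 with both removed. With lengths from the longest transcripts, an alternative added after seeing the data, it was 2 with the length trend (7.74%) and 3 with both trends removed (3.16%). Without 1 library at a time it ranged from 2 (without fructose library 2, with Cox14 and Sco2 called, 4.09%) to 12 (without control library 1, 13.1%), and the count called higher from 0 to 1. These fits assume that the lone library of a group varies like the other group, and the cause of the changes was not tested.

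The libraries of both groups carry the numbers 1 and 2, but nothing in the labels ties them, and the correlation of the deviations of same-numbered libraries was -0.027. With the replicate block 10 members were called lower (11.2%), among them all 6. With both trends removed and the block 2 members were called (3.72%), and the medians were -0.093 over all members, -0.11 for complex I, -0.055 for complex III and -0.025 for complex IV.

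The median over all members was below 0 in each alternative: -0.11 with library size only, -0.056 with the length trend removed, -0.24 with the GC trend removed, -0.094 with both removed, -0.045 and -0.088 with length and both removed on the longest transcripts, and -0.20 to -0.12 without 1 library. For complex I it was -0.14 with library size only, -0.049, -0.27 and -0.11 with the length, GC and both trends removed, -0.044 and -0.088 on the longest transcripts, and -0.25 to -0.13 without 1 library. For complex II it was -0.079 and -0.39 with the length and GC trends removed, -0.069 with the length trend removed on the longest transcripts, and -0.24 to -0.076 without 1 library. For complex III it was -0.11 and -0.055 with the length and both trends removed, -0.094 and -0.042 on the longest transcripts, and -0.27 to -0.16 without 1 library. For complex IV it was -0.087 with library size only, -0.044 and -0.026 with the length and both trends removed, -0.040 with the length and -0.076 with both trends removed on the longest transcripts, and -0.17 to -0.11 without 1 library. For ATP synthase it was -0.049 with library size only, -0.071 and -0.18 with the length and GC trends removed, -0.056 and -0.064 on the longest transcripts, and -0.16 to -0.053 without 1 library.

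Of 46 tested members, 21 kept the sign of their log2 fold change in every alternative and 25 did not. The sign turned with library size only for Cox20 (0.046). With the GC trend removed it turned for Tmem126b (-0.013), Ndufaf4 (-0.43), Sdhaf3 (-0.49), Cox15 (-0.050), Coa5 (-0.17) and Tmem70 (-0.18). With the length trend removed it turned for Tmem126a (0.14), Sdhaf3 (-0.031), Sdhaf4 (0.013), Cox10 (-0.012), Cox15 (-0.12), Cox11 (0.10), Cox17 (0.096), Coa6 (0.082), Cox18 (0.024), Cox20 (0.33) and Coa5 (-0.048), and on the longest transcripts for Ndufaf1 (0.0050), Tmem126a (0.15), Ndufaf7 (0.018), Sdhaf3 (-0.021), Sdhaf4 (0.023), Cox10 (-0.0015), Cox15 (-0.12), Cox11 (0.12), Coa6 (0.053), Cox16 (0.014), Cox18 (0.041), Cox20 (0.33) and Coa5 (-0.037). With both trends removed it turned for Ecsit (0.070), Ndufaf4 (-0.39), Sdhaf3 (-0.51), Uqcc2 (0.061), Cox15 (-0.15), Cox11 (0.071), Cox17 (0.0065), Cox14 (0.018), Coa3 (0.021), Cox18 (0.082), Cox20 (0.086) and Coa5 (-0.17). The same with the replicate block gave Ecsit (0.070), Ndufaf4 (-0.39), Sdhaf3 (-0.50), Uqcc2 (0.061), Cox15 (-0.15), Cox11 (0.073), Cox17 (0.0065), Cox14 (0.016), Coa3 (0.020), Cox18 (0.082), Cox20 (0.086) and Coa5 (-0.17). On the longest transcripts, removal of both gave Ecsit (0.042), Ndufaf4 (-0.38), Sdhaf3 (-0.50), Uqcc2 (0.063), Cox15 (-0.14), Surf1 (0.013), Cox11 (0.086), Cox14 (0.022), Coa3 (0.034), Cox18 (0.098), Cox20 (0.090) and Coa5 (-0.16). Without 1 library at a time the sign changed for Sdhaf3 (-0.016 to 0.28), Lyrm7 (-0.20 to 0.023), Cox10 (-0.077 to 0.099), Cox11 (-0.18 to 0.029), Cox16 (-0.17 to 0.0076), Taco1 (-0.031 to 0.20), Cox20 (-0.11 to 0.089), Coa5 (-0.075 to 0.21) and Coa7 (-0.30 to 0.015).

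With 2 libraries a group, an exact permutation test of a single value could not go below p = 0.333, so every call rests on the spread that edgeR shares across genes. All tested members had at least 92 counts in each library. Levels of Sco2, Pet100, Cox16, Sdhaf1 and Cox11 are uncertain, since 8.2% to 51.7% of their exonic bases belong to no other listed gene.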

Other observations

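Other cell types of the tissue were followed by short marker lists. Brown adipocyte markers did not share a side. Elovl3 (log2 fold change 0.79), Ebf2 (0.55), Pdk4 (0.53) and Ppargc1a (1.16) rose, while Cox8b (-0.44) and Cox7a1 (-0.36), both muscle- and brown fat-type subunits of complex IV, fell, and Ucp1 (-0.10, adjusted p = 0.587 in edgeR's test) and Cidea (0.00, adjusted p = 0.99) did not pass the test. Of 6 pan-adipocyte markers 1 rose and 2 fell, with sums of 11360.0 and 10410.0 CPM in control and 10190.0 and 9953 CPM in fructose. Of 6 macrophage markers 1 rose and 1 fell, and none of 6 endothelial and 6 fibroblast markers was called. Over all tested genes 15.5% were called higher and 10.7% lower. The skeletal muscle markers included Myh3 (2.13), Myh8 (1.84) and Ttn (1.96), and the fitted log2 fold changes of the 14 ran from 0.73 to 2.13.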
